A study of Mus musculus with 24 samples.

Results

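The miRNAs miR-144, miR-451 and miR-486 of the red cell lineage were followed through both reference pools. They were taken as the spots that are not controls and that carry the names mmu-miR-144, mmu-miR-451 and mmu-miR-486 on the Agilent mouse array, which gave 3 miRNAs of the 566 mouse miRNAs measured there. The study was made to compare miRNA platforms, and its pools were chosen so that many miRNAs would differ between them. Both pools were mixed in equal parts from purchased mouse total RNA. The gonads, ovary and testicle, and embryo (10 to 12 days) supplied Reference 1, and 3 organs, the heart, lung and liver, supplied Reference 2. The labels give no strain, sex or treatment, and no age for the organs. On the Agilent platform each reference was hybridized to 2 arrays in one color, all on a single slide. These 4 arrays were chosen at random by the authors from a larger set of hybridizations. Aliquots of one and the same pool went onto both arrays of a reference, so that SDs, intervals and p-values below measure technical spread. How much blood each organ held is not stated in the sources used here.

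MiRNAs are short RNAs that lead Argonaute proteins to messenger RNAs, which they recognise mainly through the seed, the bases near the 5′ end. MiR-144 and miR-451 are cut from a shared precursor transcript that the transcription factor GATA1 switches on as red cells mature, and mice without the pair have red cells that are sensitive to oxidative stress. MiR-451 is among the most abundant miRNAs of red cells, and its hairpin is cut by Argonaute-2 instead of Dicer. MiR-486 lies within Ank1, the gene for the red cell membrane protein ankyrin-1, and is known from striated muscle as well as from red cells. In pools of whole tissue, fewer cells of a type and less RNA per cell cannot be told apart.

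The sequences of miR-144 and miR-451 are shown because they sit side by side in the genome yet carry different seeds, and because miR-101a, which shares its bases 2 to 7 with miR-144, could be followed on the same array. RefSeq tables of build GRCm38.p6 held sequences for 2 of the 3 members. The array gives no arm for its miRNAs, and mmu-miR-144 was read as the arm now called miR-144-3p and mmu-miR-451 as the miRNA now called miR-451a. The mature forms follow, with bases 2 to 8 in capitals, and miR-101a-3p is placed beside them for its seed.
miR-144-3p: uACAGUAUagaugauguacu
miR-101a-3p: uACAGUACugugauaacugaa
miR-451a: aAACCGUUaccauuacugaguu
MiR-144-3p has 20 bases (chr11:78073047-78073066, plus strand) and miR-451a has 22 (chr11:78073186-78073207, plus strand). Counted from 1 at the 5′ end, miR-144-3p and miR-101a-3p shared their first 7 bases and first differed by U8C, and miR-101a-3p was the only other of 1679 mature names in the table with bases 2 to 7 equal to ACAGUA. No other mature name shared bases 2 to 7 of miR-451a, AACCGU. An entry whose annotated 5′ end is shifted would be missed by this search.

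The hairpins are shown because the 2 miRNAs lie in them differently. Capitals mark the mature miRNA.
Mir144 hairpin: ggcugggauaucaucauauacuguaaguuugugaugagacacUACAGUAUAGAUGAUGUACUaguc
Mir451a hairpin: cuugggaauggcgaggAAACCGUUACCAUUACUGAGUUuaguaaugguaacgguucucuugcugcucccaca
The Mir144 hairpin spans chr11:78073005-78073070 and the Mir451a hairpin chr11:78073170-78073241, both on the plus strand, with 99 bases between them and neither inside a protein-coding gene. The longest run of perfect Watson-Crick pairs was 16 in Mir451a and 9 in Mir144. In Mir451a this stem closed a loop of 6 bases, and the mature miRNA ran from base 17 to base 38, so that 5 of its bases lay in the loop. In Mir144 the loop inside the longest stem had 17 bases, and the mature miRNA at bases 43 to 62 lay wholly outside it. Within 10 kb, the annotation places Mir451b at this locus and Mir3107 beside Mir486. Neither name is among the miRNAs measured on the array. Whether the mmu-miR-486 probes also take up a product of Mir3107 was not tested.

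All 3 miRNAs were higher in Reference 2, the pool of heart, lung and liver, than in Reference 1, the pool of gonads and embryo. Reference 2 exceeded Reference 1 by 5.42-fold for miR-144, 3.46-fold for miR-486 and 2.77-fold for miR-451 on the normalized scale. The size for miR-451 and its place among the 3 changed with the processing, as given below. All 3 of 3 passed the test, beside 28.3% of all 566 miRNAs called lower in Reference 1 by the same test, 41.8% of the 261 miRNAs well above background on at least 1 array, and 58.1% called in either direction. Values are the log2 of the median spot signal without background subtraction, normalized by cyclic lowess, with the median taken of the 20 spots that each member has, which follows the study's methods. Differences are Reference 1 minus Reference 2, so a negative value means a higher level in Reference 2.

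MiR-144 had normalized log2 signals of 6.51 and 6.42 on the Reference 1 arrays and of 8.88 and 8.92 on the Reference 2 arrays. Both Reference 2 arrays stood above both Reference 1 arrays, an order that 41.2% of all 566 miRNAs also had. The means were 6.46 ± 0.06 and 8.90 ± 0.03 (SD, n = 2 arrays each), and the difference was -2.44 with a standard error of 0.05 (95% interval -2.53 to -2.34, limma adjusted p = 2.63e-27). It ranked 5 from the lowest of the 566 differences.

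MiR-451, its neighbour in the cluster, had normalized log2 signals of 11.85 and 11.89 in Reference 1 and of 13.33 and 13.35 in Reference 2. The arrays of the references did not overlap. The means were 11.87 ± 0.03 and 13.34 ± 0.02 (SD, n = 2 arrays each), with a difference of -1.47, a standard error of 0.03 and a 95% interval of -1.53 to -1.41 (limma adjusted p = 1.11e-26). It ranked 17 from the lowest.

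MiR-486, which comes from Ank1, had normalized log2 signals of 6.02 and 5.98 in Reference 1 and of 7.78 and 7.80 in Reference 2. Again the Reference 2 arrays were the higher ones without overlap. The means were 6.00 ± 0.03 and 7.79 ± 0.01 (SD, n = 2 arrays each), and the difference was -1.79 with a standard error of 0.04 (95% interval -1.87 to -1.71, limma adjusted p = 9.09e-26). It ranked 12 from the lowest.

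**Figure D1:**
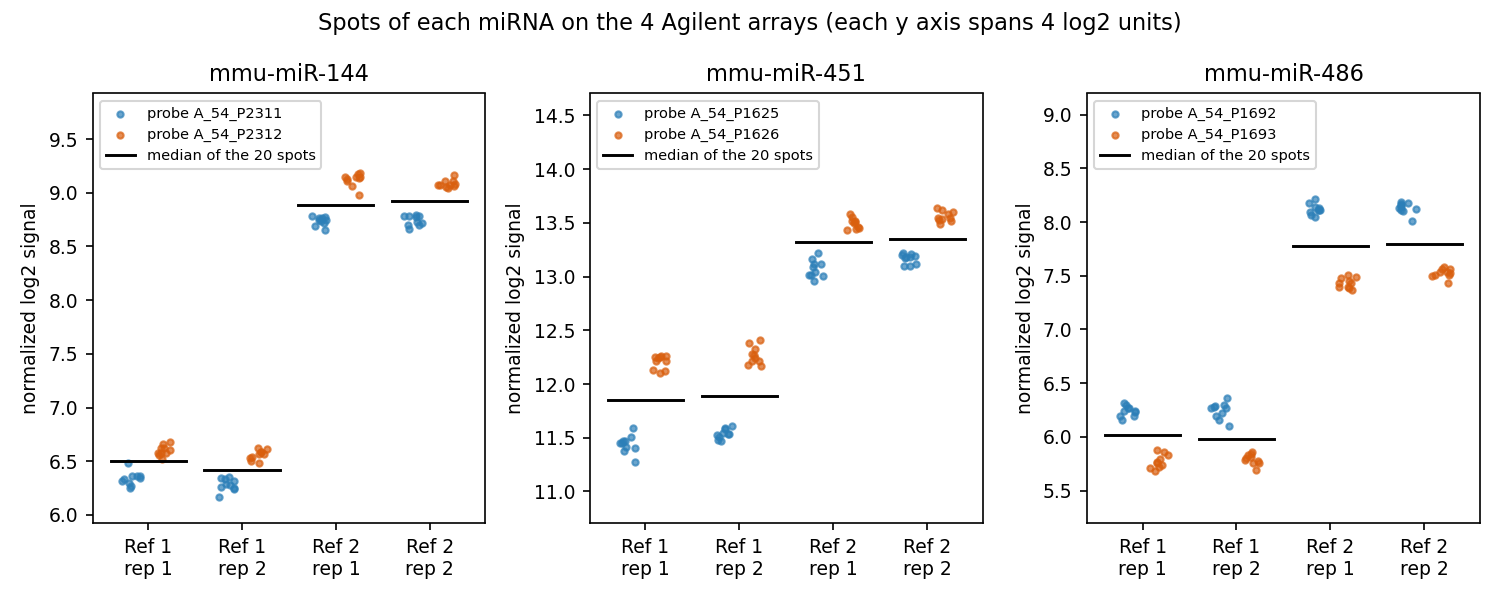
Normalized log2 signal (y axis, a window of the same height for each miRNA) of the single spots of miR-144, miR-451 and miR-486 on the 4 Agilent arrays (x axis, Ref 1 and Ref 2 with replicate number). Points are spots, colored by probe, and black lines are the median of the 20 spots. For each probe every Reference 2 spot lies above every Reference 1 spot, by at least 1.02 log2 units. The share of all probes that do so was not counted.

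Each miRNA was represented by 2 probes of 10 spots each, and all 6 probes were called lower in Reference 1 by limma. By comparison, 19.6% of all 1672 mouse miRNA probes were called lower in Reference 1. For miR-144 the probe differences were -2.44 and -2.52 with a standard error of 0.04 each, and for miR-486 they were -1.87 and -1.70, again with standard errors of 0.04. The probes of miR-451 were the farthest apart, at -1.63 ± 0.05 and -1.28 ± 0.04 (limma standard errors, n = 2 arrays per reference). In each probe the lowest Reference 2 spot lay above the highest Reference 1 spot. The gap was 2.16 and 2.30 log2 units for miR-144, 1.35 and 1.02 for miR-451, and 1.66 and 1.48 for miR-486. What share of all probes had their spots apart in this way was not counted, so the separation is not read as particular to these probes. Both probes of each miRNA thus gave the same direction.

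The signals as scanned, before any normalization between arrays, showed how bright each miRNA was against the array's own background. The 288 negative control spots had medians of 44 to 49 intensity units on the 4 arrays. MiR-144 had median signals of 106 and 101 in Reference 1 and of 396 and 423 in Reference 2. MiR-486 had 76.5 and 72.5 in Reference 1 and 189 and 197 in Reference 2, the nearest of the 3 to the controls. MiR-451 had 2807 and 2771 in Reference 1 and 13779 and 14556 in Reference 2, far above the controls on every array. All spots of miR-144 and miR-451 were well above background by the scanner software on every array, as were all of miR-486 except for 1 of its 20 spots on the first Reference 1 array. No spot of the 3 was saturated.

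Background subtraction changed the size of the difference for the dim members and hardly moved miR-451. Without subtraction the linear fold of Reference 2 over Reference 1 was 3.96 for miR-144 (3.74 to 4.19 over the 4 array pairs), 2.59 for miR-486 (2.47 to 2.72) and 5.08 for miR-451 (4.91 to 5.25). With the processed signal, from which the scanner software had subtracted background, the folds were 6.09 for miR-144 (5.85 to 6.33), 4.61 for miR-486 (4.37 to 4.87) and 5.22 for miR-451 (5.02 to 5.43). The total gene signal, the software's sum per miRNA, gave 6.39 for miR-144, 4.68 for miR-486 and 5.19 for miR-451. MiR-144 and miR-486 thus had larger folds in both subtracted signals, while the ranges of miR-451 overlapped among all 3 signals.

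**Figure D2:**
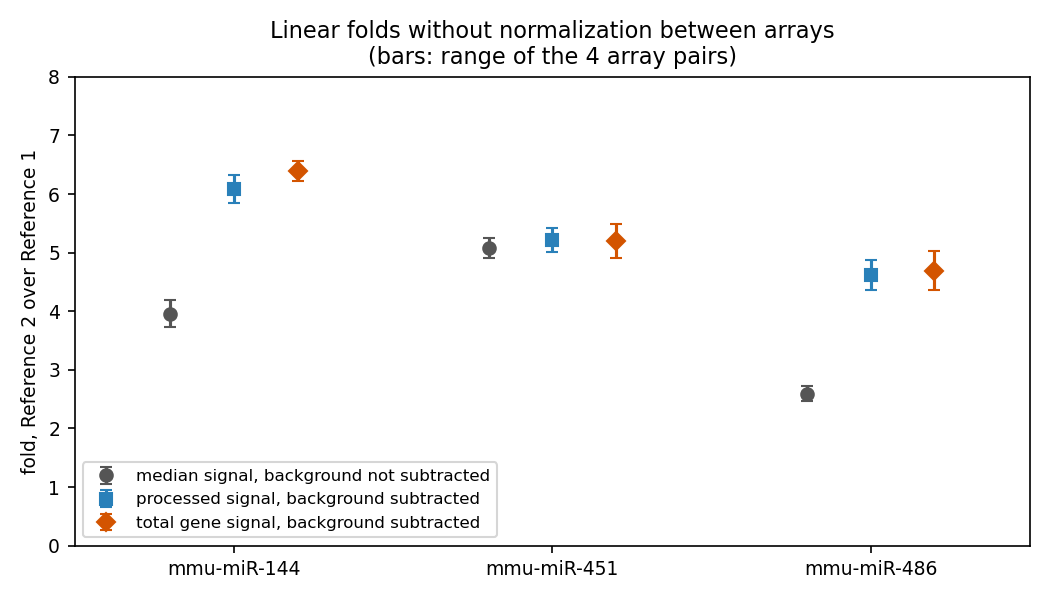
Fold of Reference 2 over Reference 1 on the linear scale (y axis, from 0) for the 3 miRNAs (x axis) without normalization between arrays. Circles are the median signal without background subtraction, squares the processed signal and diamonds the total gene signal, and bars give the range over the 4 array pairs; miR-144 moves from 3.96 to 6.09 with subtraction and miR-451 from 5.08 to 5.22.

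Cyclic lowess, which bends each array onto the others along signal strength, moved the members in opposite directions. For miR-144 it lowered the log2 signal by 0.22 and 0.24 in Reference 1 and raised it by 0.26 and 0.20 in Reference 2. For miR-486 it lowered Reference 1 by 0.23 and 0.20 and raised Reference 2 by 0.24 and 0.19. For miR-451 it did the reverse, raising Reference 1 by 0.41 and 0.47 and lowering Reference 2 by 0.42 and 0.47. Few other spots lay at the signal strength of miR-451, and what this meant for the curve was not tested. Only 21 spots of 3 other miRNAs lay within its signal range and none lay above it, against 1329 spots of 84 miRNAs within or above the range of miR-144 and 2165 spots of 139 miRNAs for miR-486.

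The size of the miR-451 difference varied with the processing, and why was not tested. With cyclic lowess it was -1.47, with quantile normalization -0.87, with median centering -2.39 and with no normalization -2.35. The deposited values, the authors' own cyclic lowess, gave -2.07. The processed signal scaled to the 75th percentile of detected miRNAs gave -2.66 for miR-451, -2.88 for miR-144 and -2.47 for miR-486, and the total gene signal gave -2.71, -3.01 and -2.56. MiR-144 was at -2.39 with quantile normalization, -2.02 with median centering and -2.36 in the deposited values. MiR-486 was at -1.74, -1.40 and -1.77 under the same settings. Scaling the processed signal to the 75th percentile of all probes gave -4.37 for miR-144, -4.16 for miR-451 and -3.96 for miR-486. The median of the 252 miRNAs tested there was -0.81, beside -0.01 for the 566 of the main fit. In each of the 16 alternatives run for each member, the member stayed higher in Reference 2. Settings that dropped the intensity trend, blocked by replicate number or kept only miRNAs well above background could change the p-value but not the difference. In the alternatives that kept all arrays each member stayed past the threshold, with adjusted p-values from limma of at most 9.01e-04.

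**Figure D3:**
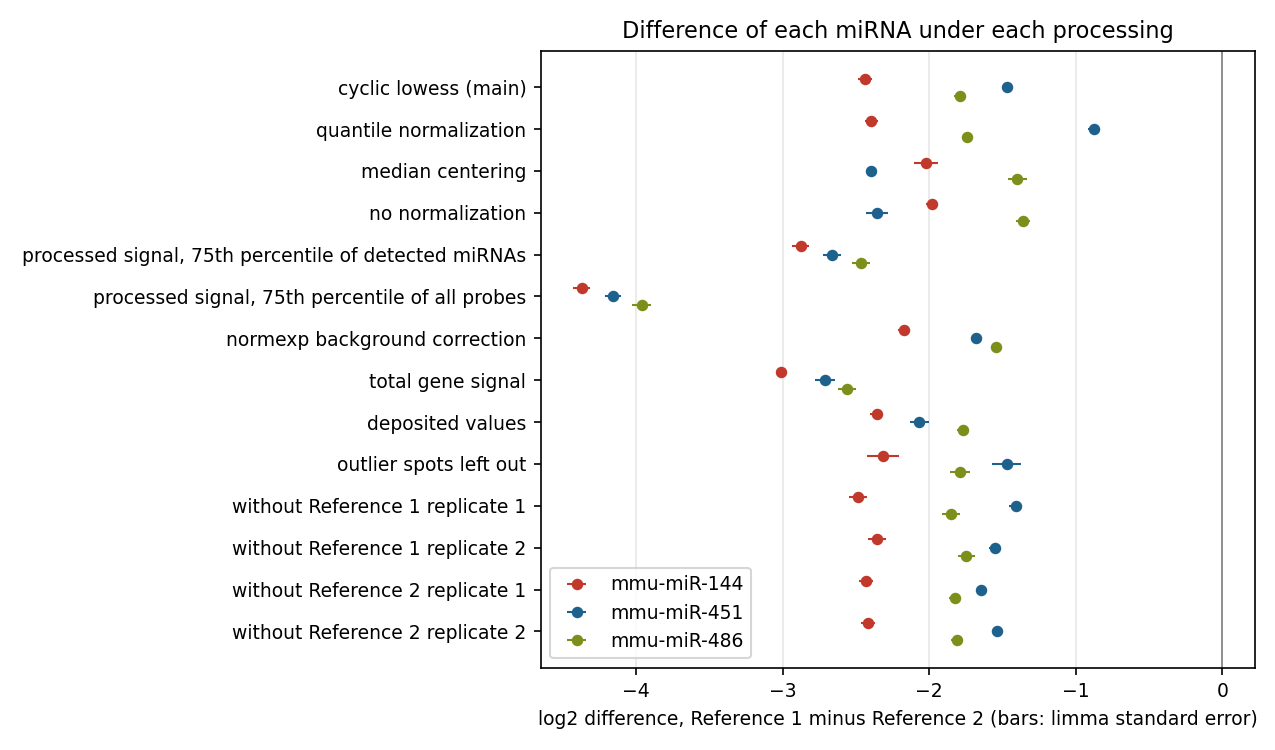
Log2 difference, Reference 1 minus Reference 2 (x axis), of miR-144, miR-451 and miR-486 under each processing (y axis, one line per setting). Points are the limma estimates and bars their standard errors; all points lie below 0, and miR-451 ranges from -4.16 to -0.87 while its place among the 3 changes from line to line.

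Whether the members differed from each other in their response was compared on each array as the difference between the log2 values of a pair, which sets no level of one miRNA against another. MiR-144 differed more between the references than miR-486, by -0.65 on the log2 scale, and more than miR-451, by -0.97. MiR-451 differed less than miR-486, by 0.32. In each of these 3 pairs the arrays of the references did not overlap, yet with 2 arrays against 2 an exact two-sided permutation test cannot go below p = 0.333, which was the value in each pair (adjusted over the 3 pairs, 0.333). The share of all pairs of miRNAs that separate in this way was not counted. The order of miR-144 before miR-486 held in all 13 alternatives, from -0.65 to -0.41. The order of miR-451 among them did not. With median centering or no normalization miR-451 differed most, and with the processed, total gene, normexp-corrected and deposited signals it stood between the other 2.

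The seed relative miR-101a, which shares 7 leading bases with miR-144 and comes from another chromosome (chr4:101346957-101346977, minus strand), had normalized log2 signals of 7.53 and 7.48 in Reference 1 and of 8.52 and 8.52 in Reference 2. It too was higher in Reference 2 without overlap, with a difference of -1.01 and a standard error of 0.05 (limma adjusted p = 3.46e-18), which is smaller in size than the difference of miR-144. That gap was not tested. MiR-101b, which was named after its value was seen, was at -1.17 (limma adjusted p = 1.07e-20). Its RefSeq entry starts at an earlier base, so its bases 2 to 7 as counted there differ from those of miR-144. Its seed was not compared at a shifted start. Cross-hybridization between the probes of these miRNAs was not tested either.

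The miRNAs whose 4 arrays ran most like each member were found by the Euclidean distance between log2 values centered on each miRNA's mean, among 260 candidates well above background on at least 1 array. For miR-144 they were miR-133a at a distance of 0.03, a miRNA of heart and skeletal muscle, the liver miRNA miR-122 at 0.09 and the muscle miRNA miR-1 at 0.10. For miR-451 they were miR-30d at 0.05, miR-146a at 0.09, a miRNA of immune cells, and miR-378* at 0.11. For miR-486 they were miR-30a at 0.08, miR-133b of muscle at 0.08 and the endothelial miR-126-3p at 0.11. No member was among the nearest 3 of another. With 4 arrays in 2 groups this likeness rests mainly on the size of a single difference, and it changed with the processing. Member by member, none of the nearest 3 was the same under median centering, and under the total gene signal only miR-126-3p for miR-486 was. The nearest, miR-133a, turned from -2.45 to 0.20 when spots flagged as outliers were left out.

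A list of 14 other miRNAs described in maturing or circulating red cells did not run with the 3 members. Of these, 8 were higher and 4 lower in Reference 1 and 2 passed the test in neither direction (29.9% of all miRNAs were called higher and 28.3% lower), with a median difference of 0.12 beside -0.01 over all 566 miRNAs. The 3 members stood below the whole range of the list, which ran from -0.996 to 1.01, except that under median centering and without normalization miR-486, at -1.40 and -1.36, lay just above miR-22, at -1.45 and -1.41. The 4 with the largest differences were miR-15b at 1.01, miR-22 at -0.996, miR-107 at 0.80 and miR-92a at 0.61. The other lower ones, named here after their values were seen, were miR-96 at -0.31 and miR-191 and miR-363 at -0.05 and -0.11, and no array had the last 2 well above background. Those without a call were miR-106b and miR-210, at -0.02 and 0.01. The summed normalized signal of the list was 8099 to 8236 in Reference 1 and 7970 to 8343 in Reference 2, with overlap. Many of these miRNAs, such as miR-15b and miR-92a, are also made by dividing cells of other kinds, whose part in these values was not tested. With the processed signal scaled to all probes the list's median turned to -0.88 and 10 were called lower. Without normalization, and likewise with outlier spots left out, 2 were called lower. MiR-22 and miR-107 lost their calls when outlier spots were left out.

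Of 6 miRNAs that fall as red cells mature or that oppose the process, all 6 were lower in Reference 1, the same direction as the members, with a median of -0.99, beside 28.3% of all miRNAs called lower. When outlier spots were left out 4 of the 6 were called. MiR-223, a myeloid miRNA, was at -1.19, with its call lost when outlier spots were left out (-0.84, limma adjusted p = 0.108), and miR-24 was at -0.94. MiR-150, a lymphocyte miRNA, and miR-222, which represses the receptor Kit, were not well above background on either Reference 1 array. On the scale normalized by cyclic lowess miR-150 was at least 2.01-fold higher in Reference 2, and miR-222 was 2.05-fold higher. These values set the brighter reference against the higher of the dim signal and the lowest signal called well above background on the same array. For miR-222 the dim signal was the higher, so its value is the measured fold and no lower bound. Its limma interval ran from 1.96 to 2.15. Both values hold on that scale alone, since without normalization the measured differences of miR-150 and miR-222 shrank to -0.63 and -0.44. The summed normalized signal of the list was 1415 to 1416 in Reference 1 and 2695 to 2830 in Reference 2.

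MiRNAs of leukocytes and vessels, cell types that tissue RNA can hold beside red cells, were mostly lower in Reference 1 too. Of 7 leukocyte miRNAs, 3 of which are also among the 6 just described, 6 were lower in Reference 1 (28.3% of all miRNAs were), with a median of -1.19, and miR-342-3p at -0.07 was not called (limma adjusted p = 0.190). The panleukocyte miR-142-3p was at -2.28, miR-142-5p at -2.17 and miR-146a at -1.53. Their summed normalized signal was 763 to 805 in Reference 1 and 2278 to 2407 in Reference 2, and 3 rather than 6 were called lower when outlier spots were left out. The endothelial miR-126-3p was at -1.68, while no array had its partner strand well above background. The summed signal of these 2 was 1427 to 1464 in Reference 1 and 4523 to 4568 in Reference 2.

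Of 7 miRNAs of striated muscle, in which miR-486 is also known, 6 were lower in Reference 1 and 1 was higher (28.3% and 29.9% of all miRNAs), with a median of -1.81. The heart miRNA miR-499 was at -3.14, miR-1 at -2.52 and miR-133a at -2.45. MiR-206, which is known from skeletal muscle, ran the other way and was not well above background on the Reference 2 arrays. It was 4.74-fold above Reference 2 on the scale normalized by cyclic lowess, a measured fold and no lower bound. Its difference there was 2.24 log2 units (limma interval 2.16 to 2.32), and with normexp correction it was 1.95. The summed signal of the muscle list was 2654 to 2799 in Reference 1 and 11735 to 12205 in Reference 2. The part that leukocyte, vessel and muscle RNA had in the differences of miR-144, miR-451 and miR-486 was not tested.

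**Figure D4:**
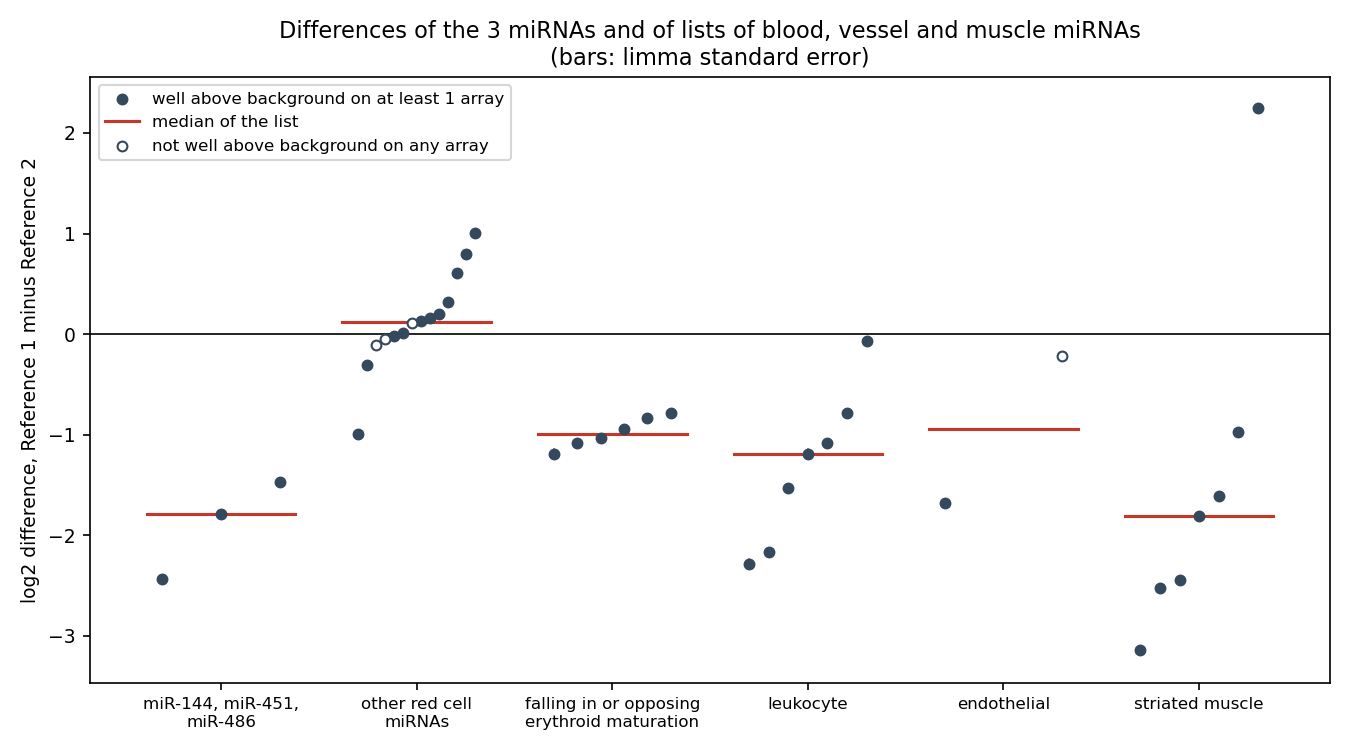
Log2 difference, Reference 1 minus Reference 2 (y axis), of the 3 miRNAs and of the members of 5 lists (x axis). Points are miRNAs, open where not well above background on any array, bars are limma standard errors, mostly smaller than the points, and red lines are medians; the 3 miRNAs lie between -2.44 and -1.47, below all 14 of the other red cell miRNAs, though miR-486 lay above miR-22 under median centering and without normalization.

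Lists for the Reference 1 tissues were mostly higher there. Of the 11 in the male germline list, 9 were called higher in Reference 1 and none lower, with a median of 0.71, beside 29.9% of all miRNAs called higher and 28.3% lower. All 7 miRNAs of embryonic mesenchyme and imprinted loci were also higher there, with a median of 1.43. Of the 2 gonad miRNAs, miR-202-3p was called higher in Reference 1 and miR-202-5p lower, though no array had miR-202-5p well above background. All 3 liver miRNAs were lower in Reference 1, with a median of -2.14.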

How the data were processed

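The 3 members and all lists were chosen with earlier results of these data known. The authors' scanner files hold spot intensity from Agilent Feature Extraction 9.5.3.1, with 11540 spots that are not controls per array, 11340 of them for mouse miRNAs. The deposited value table holds the authors' log2 values after cyclic lowess, whose columns had a correlation of at least 0.999 with those recomputed here over 560 shared miRNAs. Spot flags in these files, coded 0 or 1, came from the same software.

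The log2 of the median signal was normalized by cyclic lowess in pairs with 3 iterations and reduced to the median over spots. Differences were tested with limma 3.58.1 in R 4.3.3, with an intensity trend and Benjamini-Hochberg adjustment over 566 miRNAs at 0.05. The fit was also run on simulated data, the outcome of which is not reported here. A miRNA was well above background where at least 50% of the spots of 1 probe carried the software's flag. Arrays of a reference correlated at 0.9993 or more and were not identical. The number of arrays, 2 per reference, limits the precision. Named were the members and miRNAs sharing bases 2 to 7 or lying within 10 kb on either strand. Also named were the 3 most alike per member. Of each list at most 4 were named, those with the largest differences among the ones well above background. Tests per array pair of members under further settings were added after the data were seen. Exiqon, NCode and LC Sciences data carry numbered probes and were not used here.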

Additional observations from a re-analysis of the deposited data

How the results depend on the processing

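In all, 329 of the 566 miRNAs (58.1%) differed between the references, and the count was 498 under median centering and 218 for the processed signal scaled to detected miRNAs, where 234 were tested because the rest lay at the floor. Calls higher in Reference 1 made up 51.4% of all calls, against 35.7% under median centering, 69.2% without normalization, 63.8% and 36.4% for the processed signal scaled to detected miRNAs and to all probes, and 65.1% with the total gene signal. In the last 3 of these, 234, 252 and 275 miRNAs were tested. Their medians lay 0.36, -0.80 and 0.55 from the main median over 566 miRNAs, shifts that also hold the change of set. Leaving out 1 array at a time gave 282 to 325 miRNAs, and differences of -2.49 to -2.35 for miR-144, -1.65 to -1.41 for miR-451 and -1.85 to -1.75 for miR-486, where the lone array of a reference was assumed to vary like the others. Without outlier spots the members were at -2.31, -1.47 and -1.79.

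Replicate numbers only name the arrays, as deviations of same-numbered arrays correlated at 0.06, and the replicate block gave 328 calls and the members' same calls.

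Among pairs of members, miR-144 minus miR-451 turned to 0.37 under median centering and where no normalization was used. MiR-451 minus miR-486 turned to -0.995 under both, to -0.20 with the processed signal under either scaling, to -0.14 with normexp correction (offset 50), to -0.15 with the total gene signal and to -0.30 in the deposited values. The cause was not tested.

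Of 484 values for 31 other named miRNAs, 437 kept the call, 18 lost it, 8 gained one and 21 changed direction. Without outlier spots calls were lost for miR-22 (limma adjusted p = 0.154), miR-107 (0.103), miR-223 (0.108), miR-146a (0.0504), miR-191 (0.137) and miR-202-5p (0.0604). The other lost calls were those of miR-191, miR-202-5p, miR-363 and miR-96, and the gained ones those of miR-210, miR-106b and miR-342-3p. MiR-342-3p went to 0.0726 with quantile normalization, 0.34 under median centering, 0.38 without normalization, 0.23 for the processed signal scaled to detected miRNAs, 0.13 with the total gene signal and 0.0193 without outlier spots. MiR-96 went to 0.101 under median centering, 0.140 without normalization and 0.00522 for the processed signal scaled to detected miRNAs. MiR-106b went to 0.0946 under median centering, 0.134 without normalization, 0.0332 with normexp and 0.207 without outlier spots, and ran from -0.0780 to 0.0579 with 1 array left out at a time. With the processed signal scaled to all probes miR-15b was at -0.82, miR-107 at -0.88, miR-92a at -0.69 and miR-210 at -0.0864. Without outlier spots miR-210 was at -0.0326 and miR-133a at 0.20. Medians of the other red cell list ran from -0.88 to 0.62, of the list falling in or opposing maturation from -2.65 to -0.55 and of the leukocyte list from -2.85 to -0.85.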
